A study of Mus musculus with 2 samples.

Results

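The keratin genes followed here are 10 genes whose proteins are used to name the layers of the bladder epithelium: Krt5, Krt14, Krt15 and Krt17 (basal layer), Krt13 (intermediate and basal), Krt7 and Krt19 (all layers), and Krt8, Krt18 and Krt20 (surface). They were taken by gene symbol from the GENCODE M21 annotation of the mm10 genome build, and all 10 were found among 21938 protein-coding genes. The rule used no measured value, but earlier results of these data were known when the genes were chosen. The bladders of 2 female mice of the hybrid B6CASTF1/J, 36 days old, were assayed whole by DNase-seq, and they form 1 group with no treatment and no control. B6CASTF1/J is the first-generation cross of the strains C57BL/6J and CAST/EiJ, and its alleles were not separated here. The libraries are labelled as biological replicates, each with a biosample and animal number of its own but with a shared donor identifier, so the spread between them may in part be technical.

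Keratins are the intermediate filament proteins of epithelial cells, and a filament needs a type I and a type II chain. In the urothelium, the layered lining of the bladder, basal cells are known for K5 and K14, the surface umbrella cells for K8, K18 and K20, and K7 and K19 run through all layers. DNase-seq marks DNA that the enzyme DNase I can cut in nuclei, that is, open chromatin, and such sites often lie at active gene starts and enhancers. A peak is a stretch that the authors called as open, its height is the deposited signal of that peak, and a footprint is a short protected stretch of bases within open DNA. The heights carry no stated scaling, and the sequencing depth is unknown. Within a tolerance of 0.05 of a step they were whole multiples of 0.00789 in replicate 1 and of 0.00849 in replicate 2, so the tallest keratin start peak, at Krt7, stood at 528 and 264 steps and the lowest, at Krt20, at 68 and 55 steps.

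The larger peak list of each animal held 117773 peaks in replicate 1 and 102671 in replicate 2, with median heights of 0.845 and 0.739. The tissue label was set beside defining genes. All 4 uroplakin genes, which code for the plaques of the urothelial surface, had a start peak in both animals. Their summed start heights were 12.5 and 7.85 in replicates 1 and 2. All 3 smooth muscle genes of the bladder wall had a start peak in both animals too, at 3.86 and 2.92. Of all protein-coding genes 66.8% had a start peak in both animals, so these counts alone do not identify the tissue. The tissue is a mixture, and fewer cells of a type cannot be told apart from less open chromatin per cell.

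The start regions below show what the chromatin of the keratins rests on. They are RefSeq promoter windows of the GRCm38.p6 build, 250 bases before to 50 bases from the start. A window was matched for 7 of the 10 genes (Krt5, Krt7, Krt8, Krt13, Krt14, Krt18 and Krt20). The only Krt14 window is that of an internal start, Krt14-202, 1518 bp inside the most upstream start. The letters are those of the reference genome. Krt7 and Krt18 are shown as the members of their layers with the tallest start peak in both animals, and capitals mark bases inside a footprint in both animals (32 and 14 bases). Krt5 is shown for the basal layer, and since no base was shared, its capitals mark a footprint in either animal. Krt20 and Krt8 are shown for the TATA box letters TATAAA, in capitals, and Krt13 as a gene with no start peak, whose window held no footprint and has no capitals. Krt20 and Krt8 were added after their sequences were seen.
Krt7, chr15:101412153-101412452, plus strand: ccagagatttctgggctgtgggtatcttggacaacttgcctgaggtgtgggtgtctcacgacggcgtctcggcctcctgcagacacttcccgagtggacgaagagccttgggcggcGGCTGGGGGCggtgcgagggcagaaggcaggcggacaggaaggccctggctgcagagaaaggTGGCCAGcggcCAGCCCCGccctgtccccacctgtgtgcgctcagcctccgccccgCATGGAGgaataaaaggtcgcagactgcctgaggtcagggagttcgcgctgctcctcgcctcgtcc
Krt18, chr15:102027966-102028265, plus strand: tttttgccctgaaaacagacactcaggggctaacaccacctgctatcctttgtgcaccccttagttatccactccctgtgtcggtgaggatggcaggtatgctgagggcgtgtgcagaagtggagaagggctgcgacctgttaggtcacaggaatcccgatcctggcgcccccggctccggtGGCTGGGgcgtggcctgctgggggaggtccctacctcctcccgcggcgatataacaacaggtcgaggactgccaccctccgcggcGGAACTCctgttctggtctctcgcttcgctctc
Krt5, chr15:101712856-101713155, minus strand: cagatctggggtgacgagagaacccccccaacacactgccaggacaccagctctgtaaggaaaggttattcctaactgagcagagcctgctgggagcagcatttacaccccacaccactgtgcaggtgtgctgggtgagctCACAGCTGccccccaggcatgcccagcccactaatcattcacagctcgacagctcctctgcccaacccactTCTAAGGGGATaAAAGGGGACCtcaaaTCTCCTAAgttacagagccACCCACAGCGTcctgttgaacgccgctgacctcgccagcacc
Krt20, chr11:99438104-99438403, minus strand: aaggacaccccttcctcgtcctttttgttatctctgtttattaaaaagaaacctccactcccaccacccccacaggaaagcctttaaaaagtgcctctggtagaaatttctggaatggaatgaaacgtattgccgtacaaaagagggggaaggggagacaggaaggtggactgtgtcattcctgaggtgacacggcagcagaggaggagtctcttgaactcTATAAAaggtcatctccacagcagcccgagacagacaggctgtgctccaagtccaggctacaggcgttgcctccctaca
Krt8, chr15:102004293-102004592, minus strand: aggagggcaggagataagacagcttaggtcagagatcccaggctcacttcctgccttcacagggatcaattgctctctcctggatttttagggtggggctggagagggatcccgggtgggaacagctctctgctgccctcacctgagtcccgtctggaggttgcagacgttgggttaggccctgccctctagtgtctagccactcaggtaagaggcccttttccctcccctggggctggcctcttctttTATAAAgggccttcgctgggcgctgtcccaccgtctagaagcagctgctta
Krt13, chr11:100121517-100121816, minus strand: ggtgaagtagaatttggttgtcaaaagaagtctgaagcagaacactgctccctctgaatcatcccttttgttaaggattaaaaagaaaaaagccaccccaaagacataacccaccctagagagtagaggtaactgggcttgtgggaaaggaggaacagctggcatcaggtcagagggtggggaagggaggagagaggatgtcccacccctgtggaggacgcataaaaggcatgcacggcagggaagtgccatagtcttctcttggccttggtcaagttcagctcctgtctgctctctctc

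The windows differed in base composition. Krt7 had 66.3% G and C and Krt18 61.3%, with CpG frequencies of 0.641 and 0.603 relative to the frequency that their C and G content gives. Krt8 and Krt5 had 58% and 57.7% G and C but CpG ratios of 0.238 and 0.251. Krt20 had 50% and a ratio of 0.320, and the Krt13 window above 50.3% and 0.107. The medians over 20150 windows of protein-coding genes were 57% and 0.588. The CpG ratios of Krt7 and Krt18 were thus above the median of all windows and those of the other matched members below it. Krt15, Krt17 and Krt19 had no window, and Krt14 had none at its most upstream start.

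The 8 member windows were searched on both strands for 14 motifs, with positions counted from the start base as 0. TATAAA was found in 2 windows, at -29 in Krt20 and at -1 in Krt8, where its reverse also matched at -3, and 12.1% of all windows held it. Krt7 held the GC box GGGCGG at 4 positions (-141, -128, -56 and -24), which no other member window held and 47.8% of all windows did. The AP-1 letters TGANTCA were in both Krt13 windows, once in the one shown (-196) and at 2 positions in that of an internal start, against 7.0% of all windows. The TEAD letters GGAATG were in 2 member windows, the internal Krt14 window with 1 match and Krt20 with 3, against 13.4% of all windows. The ETS letters AGGAAG were in 4 of the 8 and the GATA letters AGATAA in 2, against 34.2% and 9.45% of all windows. The letters ATAAAAGG, chosen after the windows were seen, stood on the gene's strand in Krt5 and Krt13 at -29, in Krt20 at -28, where they overlap its TATA box, and in Krt7 at -7, against 1.62% of all windows on either strand. A match is a description of letters and not a bound site.

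A peak within 1 kb of an annotated start was present for 7 of the 10 keratins in replicate 1, where 69% of all protein-coding genes had one, and for 6 in replicate 2, where 68.1% had one. Krt5, Krt7, Krt8, Krt18, Krt19 and Krt20 had one in both animals, 6 of 10 against 66.8% of all genes, which is near the background. A readout that needs no peak call gave the same 7 and 6 keratins: a base with a false discovery rate of at most 0.05 lay within 250 bp of a start for those genes, against 66.9% and 66.4% of all genes, and 64.8% in both. It comes from the same libraries, and every peak in the keratin domains held such a base, so it is not independent of the peaks. All surface and all-layer keratins had an open start in both animals, and of the 5 basal and intermediate keratins only Krt5 did. This split ended with the smaller of the peak lists deposited for each animal, in which Krt5, Krt7 and Krt19 kept a start peak in both animals, Krt8 and Krt18 in replicate 1 alone, and Krt20 in neither. Over the 20 annotated starts of the 10 genes, 7 had a peak in both animals, 2 in replicate 1 alone and 11 in neither. Starts of the same gene can lie close together, as in Krt7, so they are not separate regions. The share over all annotated starts of other genes was not computed.

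**Figure D1:**
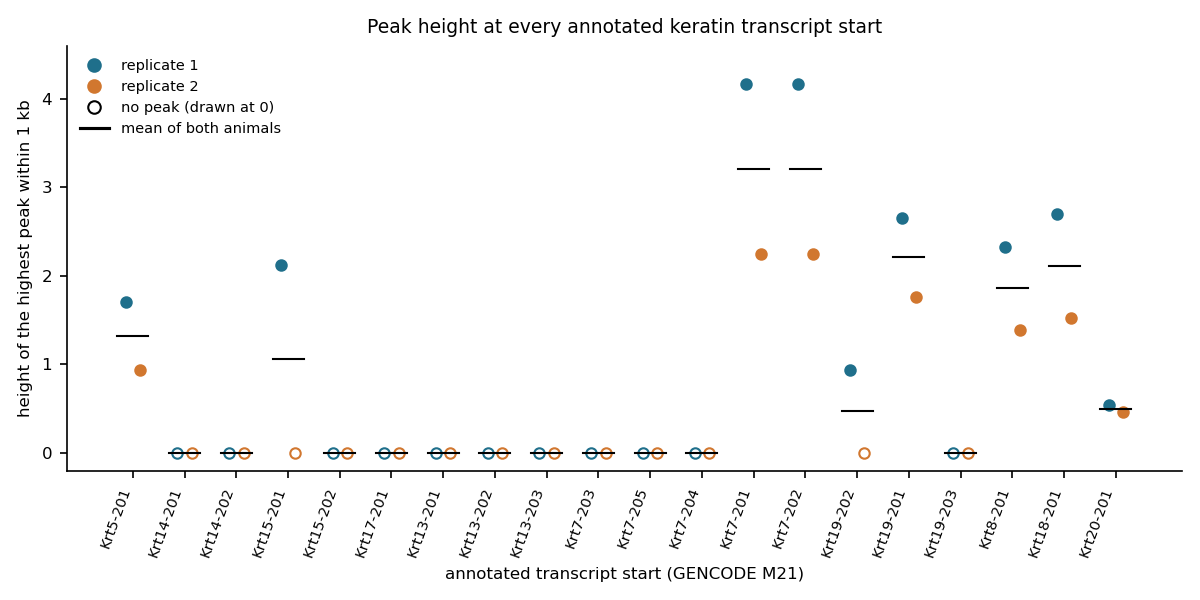
Height of the highest peak within 1 kb of each annotated transcript start of the 10 keratins (deposited signal, no stated scaling), with a point per animal, open points at 0 for no peak, and a bar at the mean. The Krt7-201 start is highest at 4.17 and 2.24, and 11 of the 20 starts have no peak in either animal. Starts of the same gene that lie close together can share a peak.

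Open keratin starts were lower than open starts of other genes. Their median height was 2.33 in replicate 1 (7 genes) and 1.46 in replicate 2 (6 genes), against 4.84 and 3.53 over all protein-coding genes with an open start. Among the 6 starts open in both animals Krt7 was highest, followed by Krt18 and Krt19, then Krt8, Krt5 and Krt20, with Krt18 above Krt19 in replicate 1 and below it in replicate 2. Every one of these starts was lower in replicate 2, so a range over both animals also holds the difference between the libraries. The ranges of neighbours from Krt7 to Krt5 overlapped, while within each animal the order was the same apart from Krt18 and Krt19. Krt20 lay below the other 5 in both animals, with no overlap of ranges.

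Krt5 encodes the type II keratin that pairs with K14 in basal cells and had the only basal start open in both animals. Its start peak had a height of 1.71 in replicate 1, centred 12 bp before the start, and 0.629 in replicate 2, centred 92 bp inside it. Upstream stood 2 more peaks found in both animals, at about 1 kb (1.49 and 0.943) and at -1652 bp in replicate 1 and -1664 bp in replicate 2 (2.94 and 0.926). The order of the 3 therefore differed: the -1652 peak was tallest in replicate 1, and in replicate 2 it and the 1 kb peak were nearly equal. The lowest false discovery rate within 250 bp of the start was 1.04e-10 in replicate 1 and 0.00629 in replicate 2. Footprints were found in the 1 kb peak and the -1652 peak of both animals, whereas at the start itself the 4 of replicate 1 and the 1 of replicate 2 shared no base.

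Krt14, the type I partner of K5, had no peak within 1 kb of either of its 2 annotated starts and no base with a false discovery rate of at most 0.05 within 250 bp of them in either animal. Its domain, taken as the gene with 10 kb at each end, nevertheless held 4 peaks in replicate 1 and 3 in replicate 2. A peak inside an intron had heights of 1.00 and 0.629, centred 3888 and 3908 bp inside the upstream start. Another lay 7248 and 7236 bp inside that start, beyond the gene's end, at 0.671 and 0.544. Another, with 1.11 and 0.535 the tallest of the domain in replicate 1 and the lowest in replicate 2, lay farther downstream and nearer to the start of Krt9, a keratin of palm and sole skin. It is shown for its AP-1 letters TGANTCA, in capitals, which it held at 2 places.
Krt14 downstream peak, GRCm38, chr11:100198741-100198940, plus strand: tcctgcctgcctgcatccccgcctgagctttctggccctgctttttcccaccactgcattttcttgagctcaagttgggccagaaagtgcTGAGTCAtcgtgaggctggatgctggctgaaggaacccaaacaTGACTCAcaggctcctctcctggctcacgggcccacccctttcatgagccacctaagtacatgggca

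The first of these AP-1 matches lay in a footprint of replicate 1 (chr11:100198826-100198849) and the second overlapped a footprint of replicate 2 (chr11:100198872-100198878). Neither match touched a footprint in both animals.

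Krt15, a type I keratin of basal cells, was open in 1 animal. In replicate 1 its coding start carried a peak of 1.24 at -26 bp and a taller one of 2.12 at -812 bp. Replicate 2 had no peak there and no base with a false discovery rate of at most 0.05 within 250 bp of the start. Of all peaks of replicate 1 in the same height decile as the taller peak, 97.7% were found in replicate 2, and of those in the decile of the smaller peak 86.6%. The other 3 peaks in the Krt15 domain, found in both animals, lay nearest to starts of Krt19.

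Krt17, a type I keratin known from basal and stressed epithelium, had no peak, no footprint and no base with a false discovery rate of at most 0.05 in its whole domain in either animal. Krt13, a type I keratin of stratified internal epithelia, had no peak at any of its 3 annotated starts. Its domain held 1 peak, in replicate 1 alone, with a height of 1.87 and a false discovery rate as low as 1.74e-07, centred 7766 bp inside the most upstream start and past the end of the gene (chr11:100113681-100113920). Peaks of its height decile in replicate 1 were found in replicate 2 in 94.1% of cases. A footprint in it held the AP-1 letters within 5 bp.

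**Figure D2:**
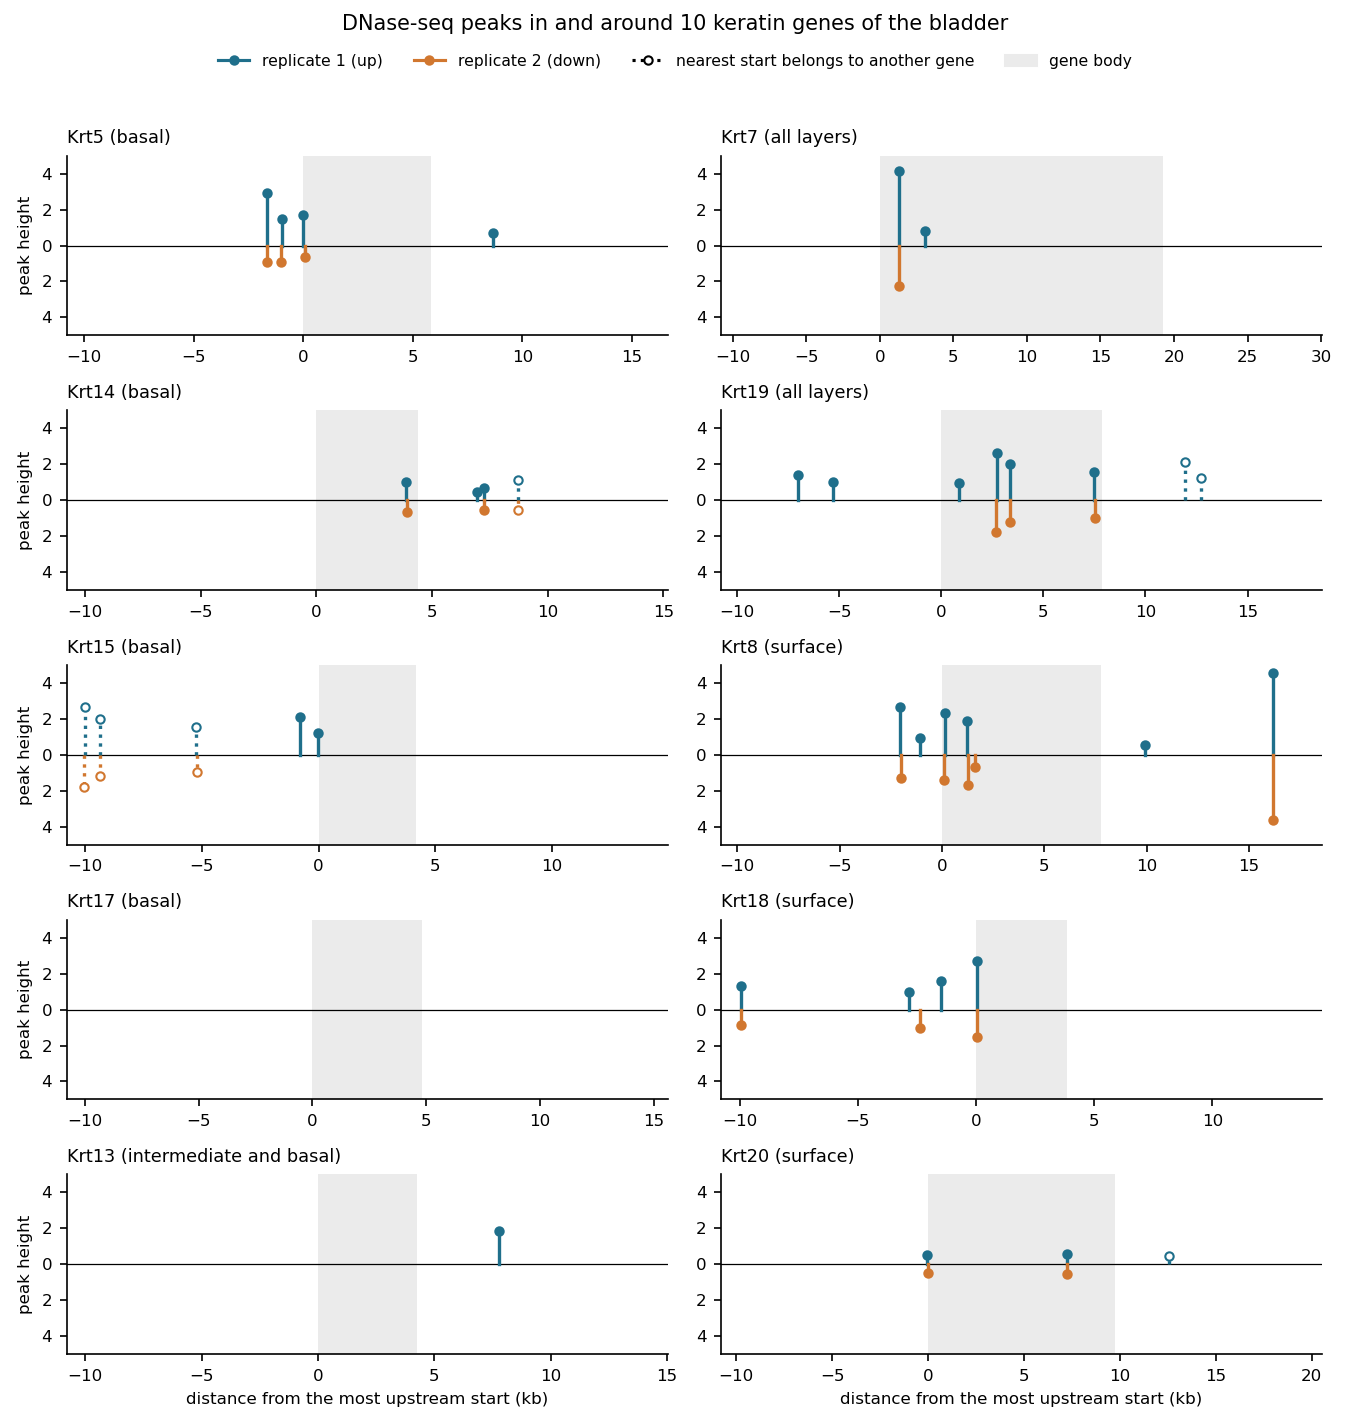
Peaks of replicate 1 (up) and replicate 2 (down) in and within 10 kb of each keratin gene, by distance from the most upstream annotated start (kb) and height. Krt17 has no peak in either animal and Krt13 only 1 in replicate 1, whereas Krt8 has 6 and 5, the tallest about 16 kb inside the start at 4.56 and 3.64.

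Krt7, a type II keratin of glandular and transitional epithelia, had the tallest start peak of the 10, with heights of 4.17 and 2.24 in replicates 1 and 2 (3.21 ± 1.36, SD, n = 2). This peak was at the starts of Krt7-201 and Krt7-202, 1359 and 1406 bp inside the most upstream annotated start. The 3 starts of the upstream group (Krt7-203, Krt7-204 and Krt7-205) had no peak and no base with a false discovery rate of at most 0.05 within 250 bp in either animal. Around Krt7-201 the lowest rates were 1.62e-15 and 1.70e-07. The Krt7 domain held 7 footprints in replicate 1 and 4 in replicate 2, and all 4 of replicate 2 overlapped 1 of replicate 1, in the peak whose sequence is shown above. Footprints with a GC box within 5 bp lay in both animals at chr15:101412264-101412278 and chr15:101412331-101412359 (bounds of replicate 1).

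Krt19, a type I keratin found across simple and transitional epithelia, had its peak at an internal start as well. At Krt19-201, 2545 bp inside the most upstream start, heights were 2.65 and 1.77 (2.21 ± 0.63, SD, n = 2), and the lowest false discovery rates 1.35e-09 and 1.63e-05. Near the most upstream start, Krt19-202, replicate 1 had a peak of 0.939 centred 869 bp inside it and replicate 2 had none. An intronic peak (2.00 and 1.19) and a peak near the gene's end (1.56 and 0.968) were found in both animals. The last of these held a footprint with the AP-1 letters in both, at chr11:100141184-100141192 in replicate 1. Replicate 1 had 2 further peaks upstream, at -5333 and -7004 bp (1.03 and 1.39), that replicate 2 lacked.

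With only the most upstream start of each gene counted, 4 keratins were open in both animals, against 62.1% of all genes, since Krt7 and Krt19 dropped out.

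Krt8, the type II chain of simple epithelia and of umbrella cells, had a start peak of 2.33 and 1.39 (1.86 ± 0.66, SD, n = 2). It was centred 142 and 114 bp inside the GENCODE start, close to the RefSeq start at 102004342, and overlapped the window shown above with TATAAA at -1. A footprint of replicate 1 (chr15:102004340-102004346) covered part of these letters. The noncoding gene Gm36026, on the other strand, starts 128 bp from the middle of the peak in replicate 1, so the peak cannot be given to Krt8 alone. The lowest false discovery rate within 250 bp of the Krt8 start was 8.93e-26 in replicate 1 and 0.0152 in replicate 2. An intronic peak had heights of 1.89 and 1.66, and a peak 2 kb upstream, over an exon of Gm36026, 2.66 and 1.27.

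The tallest keratin peak of both animals lay past the end of Krt8, 16192 bp inside its start, with heights of 4.56 and 3.64. It was higher than 91.9% and 92.1% of all peaks in its animal. Its nearest protein-coding start was that of Krt8, and it is shown with the 76 bases inside footprints of both animals in capitals.
Krt8 downstream peak, GRCm38, chr15:101988201-101988380, plus strand: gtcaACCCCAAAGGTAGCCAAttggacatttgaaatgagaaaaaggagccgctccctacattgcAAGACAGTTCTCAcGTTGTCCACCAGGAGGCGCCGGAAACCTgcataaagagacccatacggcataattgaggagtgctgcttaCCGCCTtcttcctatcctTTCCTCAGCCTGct

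This peak carried 4 shared footprints in replicate 1 and 5 in replicate 2, of up to 44 bp, more than any keratin start peak. Of the 14 motifs, only the ETS letters AGGAAG lay within 5 bp of them. The search took exact letters, so a site with other letters, of CTCF or any other factor, would be missed.

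Krt18, the type I partner of K8, had a start peak of 2.70 and 1.52 (2.11 ± 0.83, SD, n = 2), centred 20 and 26 bp inside the start. A distal peak at -9950 and -9962 bp had heights of 1.29 and 0.858. Each animal had peaks between 1 and 3 kb upstream that did not overlap those of the other animal: 1.57 at -1470 and 0.979 at -2820 bp in replicate 1, and 1.019 at -2381 bp in replicate 2. Krt8 and Krt18 lie next to each other with their starts facing across 23.7 kb. Of the peaks of this interval, 1 stood near the middle in both animals, 11818 bp from the Krt8 start and 11880 bp from that of Krt18, with heights of 2.05 and 1.16.

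Krt20, the type I keratin that marks umbrella cells, had the lowest open start, with heights of 0.537 and 0.467 (0.502 ± 0.049, SD, n = 2), higher than only 5.04% and 4.69% of the open genes of each animal. The lowest false discovery rates there were 0.000914 and 0.00399. A second peak of similar height lay over exon 6 (0.584 and 0.527). A footprint at the start was found in both animals, overlapping in 3 bases. The third peak of its domain, 0.482 in replicate 1 alone, lay nearer to the start of Krt12, the keratin of the cornea.

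**Figure D3:**
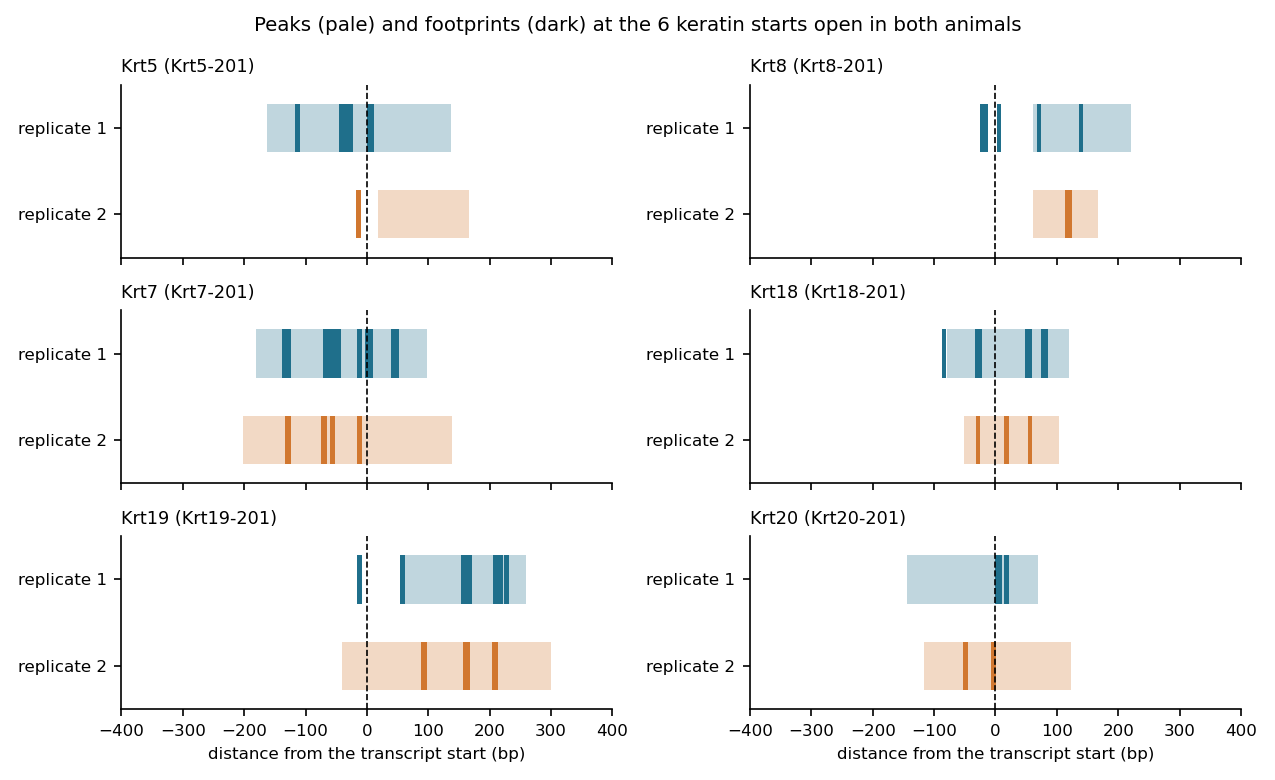
Peaks (pale bars) and footprints (dark bars) by distance in bp from the transcript start for the 6 keratins open in both animals, replicate 1 above replicate 2. Each of the 4 Krt7-201 footprints of replicate 2 overlaps 1 of replicate 1, and the Krt5 footprints at the start share no base.

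The domains of the 10 keratins together held 32 distinct peaks in replicate 1 and 20 in replicate 2, with median heights of 1.34 and 0.956. The median keratin domain held 4 peaks in replicate 1 and 3 in replicate 2, the same as the median of all protein-coding genes. Keratin domains are shorter, so per 10 kb of domain the medians were 1.59 and 1.12 peaks, against 0.784 and 0.688 over all protein-coding genes and 0.70 and 0.423 over the 43 other keratins. Summed heights had medians of 5.76 and 2.37 for the 10 keratins against 8.71 and 6.06 for all genes. A domain peak in both animals was found for 8 of 10 keratins, with Krt13 and Krt17 the exceptions, against 81.2% of all genes. These medians carry no test, since all genes come from the same 2 libraries.

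Replicate 2 had 0.625 times as many keratin peaks as replicate 1, against 0.872 times as many over the genome. This gap depended on the domain and on the peaks taken. In gene bodies alone there were 14 peaks in replicate 1 and 12 in replicate 2, a ratio of 0.857. With 50 kb on either side there were 95 and 78, a ratio of 0.821. The gap was wider with the smaller peak lists (19 and 6, a ratio of 0.316) and with the higher 50% of peaks (24 and 13, a ratio of 0.542). Of the 32 peaks of replicate 1, 56.2% were found in replicate 2, against 71.5% of all its peaks. In gene bodies alone 78.6% were, and with 50 kb on either side 75.8%, but shares for such domains of other genes were not computed. With the smaller lists 31.6% were, and with the higher 50% of peaks 50%. Of the 20 of replicate 2, 90% were found in replicate 1, against 80.7% of all its peaks. The keratin peaks missing in replicate 2 included tall ones at Krt15, Krt13, Krt18 and Krt19, as given above.

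Summed heights over the domains were compared between the animals as log2 of the sum plus 1, replicate 2 minus replicate 1, relative to the median of all 18503 genes with a peak, which was -0.48. Of the 9 keratins with a peak 8 were lower in replicate 2, where 50% of all genes were lower, and the median was -0.41 against quartiles of -0.18 and 0.21 for all genes. Krt13 stood at -1.04, Krt19 at -1.02, Krt5 at -0.69, Krt15 at -0.63, Krt7 at -0.41, Krt18 at -0.30 and Krt14 at -0.18. Krt8 stood at -0.05 and Krt20 at 0.09. The values of Krt15 and Krt19 share 5 peaks of replicate 1, because their domains overlap. With only the peaks found in both animals the median moved to -0.12. The 4 uroplakin genes were between -0.42 and -0.07 in the same measure and the 3 smooth muscle genes between -0.40 and 0.20. The part of cell composition in these differences was not tested, and with 1 library per animal they have no error of their own.

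Paired by overlap, 17 keratin peaks with a member as nearest start could be compared, relative to the median pair of the genome (-0.35 over 84217 pairs). Their median was -0.32, and 12 were below the median pair. The start peak of Krt5 stood at -1.09 and its -1652 peak at -1.32, above only 0.533% and 0.126% of all pairs. The peak 2 kb upstream of Krt8 stood at -0.71, where the fifth percentile of all pairs was -0.67. At the other end were the exon 6 peak and start peak of Krt20 at 0.20 and 0.15, the intronic peak of Krt8 at 0.16, the downstream peak of Krt14 nearest to its own start at 0.05, and the tall downstream peak of Krt8 at 0.03. The surface keratins had a median of -0.11 over 8 pairs, the basal ones -0.32 over 5 and the all-layer ones -0.37 over 4. A difference between layers was not tested.

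**Figure D4:**
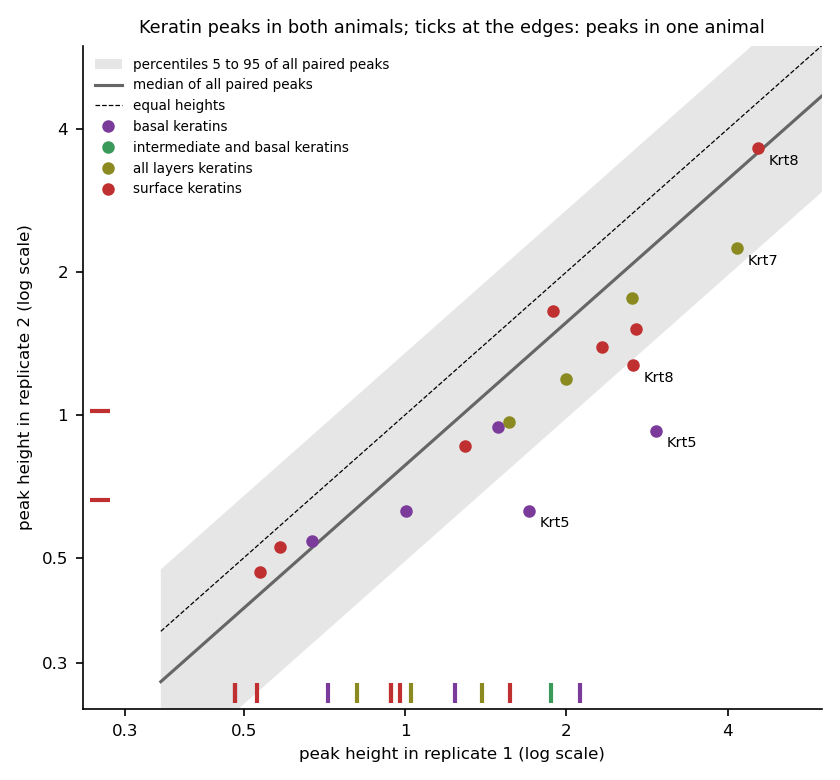
Height in replicate 2 against replicate 1 (log axes) of the 17 keratin peaks found in both animals whose nearest start is a member, coloured by layer. The median and the percentiles 5 to 95 of all 84217 paired peaks are drawn. The Krt5 points at 0.629 against 1.71 and 0.926 against 2.94 lie below the band, as does the Krt8 point at 1.27 against 2.66. Ticks at the edges are peaks found in 1 animal.

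The keratin domains held 89 footprints in replicate 1 and 42 in replicate 2, and replicate 2 had 0.472 times as many, against 0.885 times over the genome. The ratio was 0.526 in gene bodies alone and 0.755 with 50 kb on either side. Of the 89, 24.7% overlapped a footprint of the other animal, and of the 42, 57.1%, against 44.8% and 52.2% of all footprints. Krt8 had the most in both animals, 23 and 14. Krt19 had 22 in replicate 1, 14 of them also in the Krt15 domain, and 6 in replicate 2, as did Krt14. AP-1 letters lay within 5 bp of 5 of the 89 and 2 of the 42 footprints, in the domains of Krt14, Krt13, Krt19 and Krt8, against 0.915% and 0.729% of the footprints on chromosomes 11 and 15. GC boxes were at 7 and 3, against 8.46% of footprints in both animals. Exact GATA, TEAD, grainyhead, forkhead, NFI and CTCF core letters were at none. The share of all footprints with each was at most 1.01%, so none among so few is near the background.

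The keratin genes lie in 2 clusters, and the members were set against their neighbours there. The chromosome 11 cluster has 27 type I genes over 1.04 Mb, 6 of them members, and the chromosome 15 cluster, which holds the type II genes and Krt18, has 26 over 0.685 Mb, 4 of them members. Of the 43 other keratins 8 had a start peak in both animals (18.6%), against 6 of 10 members. With only the most upstream start of each gene counted, 5 of the 43 did (11.6%), against 4 of the 10 members. Peaks per 100 kb were 4.63 and 3.86 in the chromosome 11 cluster and 11.2 and 10.5 in that of chromosome 15.

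Of the 8 others, Krt10, of differentiated skin, had 7.14 and 4.20, and Krt80, a widely expressed epithelial keratin, 4.71 and 4.33. Both were above every member start in the same animal, but the Krt10 peak lay at an internal start, Krt10-202, and not at its most upstream one. The other 6, Krt33a, Krt1, Krt23, Krt86, Krt4 and Krt222, ranged between 0.545 and 1.25 in replicate 1 and between 0.357 and 0.977 in replicate 2. The peaks of Krt33a and Krt1 also lay at internal starts, of transcripts without coding sequence. Krt79 had a peak of 1.83 in replicate 2 alone, near an internal start. Of the cornified skin list 2 of 6 starts were open in both animals (Krt1 and Krt10), of the hair list 2 of 8 (Krt33a and Krt86), and of the list for wet stratified epithelium 1 of 5, Krt4, while Krt13, Krt16, Krt6a and Krt6b had none. The start of Krt12, the only cornea gene found of 2, had no peak. Over all protein-coding genes the share with a start peak in both animals was 66.8%.

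**Figure D5:**
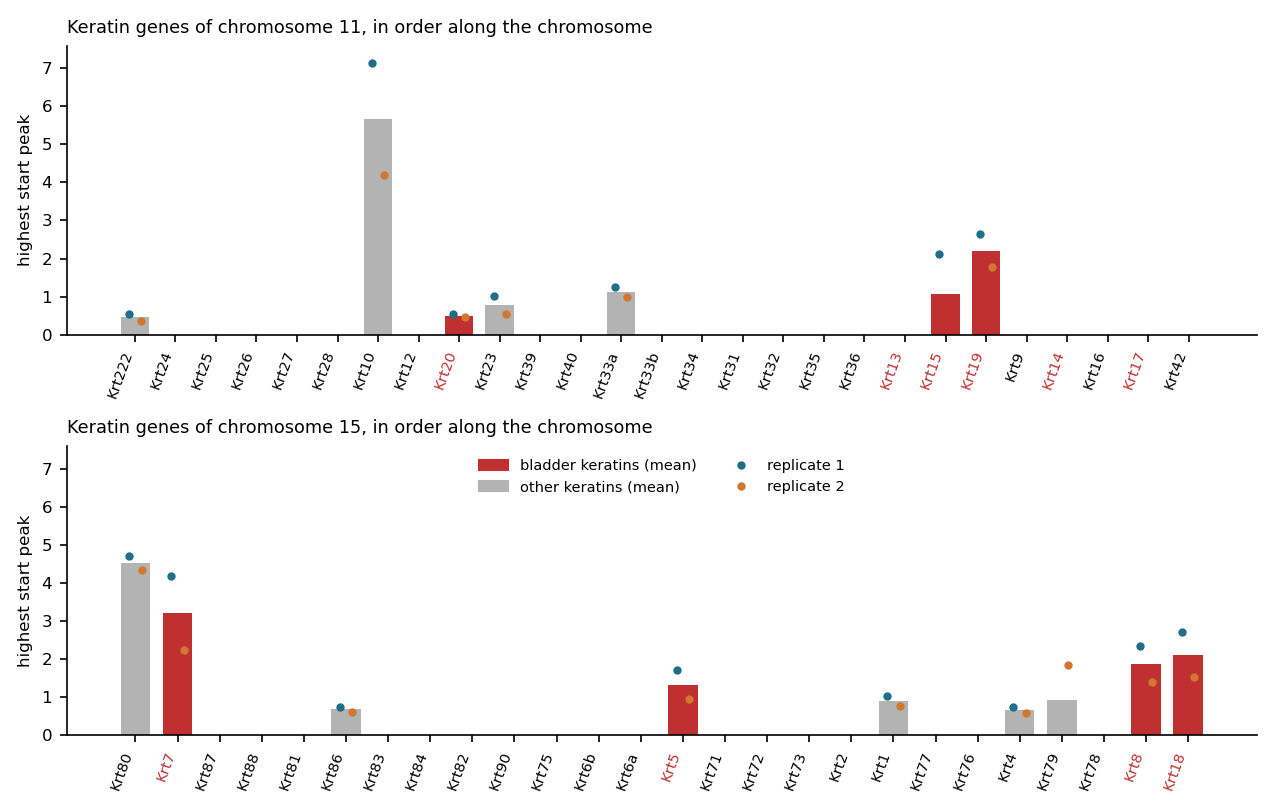
Highest start peak of each keratin gene in order along both clusters (bars: mean of both animals; points: each animal), members in red and other keratins in grey. Most starts between the members have no peak. Krt10 (7.14 and 4.20, at an internal start) and Krt80 (4.71 and 4.33) exceed Krt7, the highest member.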

How the data were processed

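Per the labels, DNase-seq peaks, footprints and false discovery rates of the cut rate were deposited on mm10 for each animal separately, and the peak caller is not given in the sources used here. The authors deposited 2 peak lists per animal, with 117773 and 73247 rows in replicate 1 and 102671 and 61717 in replicate 2, and the larger was used. Peak height is the deposited signal of each peak, with no stated normalization. The deposited false discovery rates are q-values per stretch of bases, here up to 0.05. The deposited footprints carry the single value 0.01, read here as the authors' threshold.

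The members, lists and tests were chosen with earlier results of these data known. Every annotated start of GENCODE M21 was taken with 1 kb on either side, a domain was the gene body with 10 kb on either side, and peaks counted as found in both animals from an overlap of 1 bp. Footprints were assigned to a domain by their middle, and motifs were searched in them with 5 bp on either side. Differences are log2 of summed height plus 1. Named other keratins were those with a start peak in both animals, at most 8. Sequences came from RefSeq windows or the GRCm38 genome, whose chromosome lengths contain all peaks. There is 1 group, so no p-value was computed. Python 3.11.15 with numpy 2.4.6, pandas 2.3.3 and pysam 0.24.0, bedtools 2.31.1 and samtools 1.23.1 were used. The functions for overlap, pairing, nearest start and motifs were tested on simulated peaks. Alternatives tried were the smaller peak list, the higher 50% of peaks, other windows and domains, starts, overlaps, pseudocounts and scalings, and each animal alone.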

Additional observations from a re-analysis of the deposited data

How the results depend on the processing

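Of 6 keratins open in both animals, 3 remained with the smaller peak list (Krt5, Krt7 and Krt19; Krt8 and Krt18 kept theirs in replicate 1 only, and Krt20 in neither). The count was 5 with the higher 50% of peaks, 4 with the most upstream start only, 6 with the other start windows and with coding starts, and 6 to 7 from a single animal. The mean number of distinct peaks, 26, was 12.5 with the smaller list, 13 in gene bodies alone and 86.5 with 50 kb on either side, and 20 to 32 from a single animal. The mean share found in the other animal, 73.1%, ranged from 65.8% to 85.3%. With the smaller list the share was 31.6% for replicate 1 and 100% for replicate 2. The median difference between animals, -0.41, was -1.05 with the smaller list and between -0.69 and -0.12 under the other alternatives. The mean number of footprints, 65.5, was 29 in gene bodies, 236 with 50 kb on either side, and 42 to 89 from a single animal; requiring an overlap over 50% of both footprints leaves this count as it is and gives shared shares of 17.98% and 38.1%. Of the single keratins, mean start height became 1.94 for Krt5 with 2 kb windows, 0 for Krt7 and 0.470 for Krt19 with the most upstream start, and 1.16 for Krt8 and 0 for Krt20 with the smaller list. The causes were not tested. Leaving out Krt19 and Krt15, and the paired peaks, were added after the data were seen. No paired analysis was possible because there is 1 group. With 1 library per animal and unknown depth, a missing peak is not shown to be closed chromatin.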

Other observations

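Between Krt8 and Krt18, besides the peak near the middle, 2 narrow peaks were found in both animals 12407 and 12572 bp from the Krt8 start in replicate 1, with heights of 0.805 and 0.671 for the nearer, in replicates 1 and 2, and 0.718 and 0.671 for the farther.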
